A study of Mus musculus with 11 samples.

Results

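Transmitter-gated channels are receptors that are themselves ion channels: binding of glutamate, GABA, glycine, acetylcholine, serotonin or ATP opens a pore within the protein. Each channel is assembled from several subunits, and the mix of subunits sets which ions pass and how fast the channel closes. Sensory neurons of the trigeminal ganglion carry such channels on their endings in the face and mouth, where ATP and serotonin excite them, and on their cell bodies and central terminals in the brainstem, where GABA and glutamate act on them. The members described here were all probe sets whose 1 annotated gene symbol begins with Gria, Grin followed by a digit, Grik, Gabr, Glra, Glrb, Chrn, Htr3 or P2rx, which gave 46 of 12488 probe sets on the U74Av2 array and 17 of 12411 on the U74Bv2 array. These 63 probe sets belonged to 40 genes, 7 of them measured on both array types. By transmitter they comprised 20 probe sets for glutamate, 17 for GABA, 17 for acetylcholine, 6 for ATP, 2 for glycine and 1 for serotonin.

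The RNA came from whole trigeminal ganglia of mouse embryos at embryonic day 13.5, of 3 genotypes. Homozygous knockouts lacked the transcription factor Brn3a, encoded by Pou4f1, and were set against heterozygotes and wild-type embryos. The sources used here do not give the strain, the targeted allele or the sex of the embryos, and all groups share the tissue, the stage and the pooling of about 10 to 12 ganglia per array. U74Av2 held 2 arrays of each genotype, and U74Bv2 held 2 knockout, 2 heterozygote and 1 wild-type array. The labels do not say whether replicate arrays came from separate litters, so the p-values reflect array-to-array spread, which may be technical, and the small number of arrays limits precision.

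Pou4f1, measured by 1 probe set on U74Bv2, had signals of 550 and 904 in knockouts, 2196 and 3570 in heterozygotes and 3313 in wild type. Both knockout arrays were the lowest. Its log2 difference was -2.15 against wild type (limma adjusted p = 0.0245) and -1.91 against heterozygotes (adjusted p = 0.0111). The sources used here do not say which part of Pou4f1 is probed. On U74Av2 each of the 6 arrays correlated best with an array bearing the same number, 1 or 2, in its title, and the 18S ribosomal control signal was 10.1 to 13.2 times higher in number 1 than in number 2 arrays of a genotype. It was also 2.48 times (number 1) and 1.90 times (number 2) higher in knockout than in wild type. Values within each number are therefore given beside the leading results. Of 12 sensory neuron markers on U74Av2, 10 were bright enough to test, with a median log2 difference of -0.60 in knockout against wild type. Of these, 7 were below 0 and 3 above, namely Tubb3 (0.36), Nefm (0.26) and Stmn2 (0.01). The summed signal of the 12 was 53989 to 57585 in knockouts, 63129 to 77432 in heterozygotes and 56441 to 58231 in wild type. Tubb3 alone had means of 24640, 28513 and 19174 in the same order. The actin-binding protein Avil fell, with a difference of -2.72 (adjusted p = 0.0125), and the other 9 did not pass. The summed signal of 9 Schwann and satellite glia markers was 22100 to 24328 in knockouts, 20119 to 21724 in heterozygotes and 17554 to 19402 in wild type, with none called. Most of that sum was 1 gene, Fabp7, with means of 14506, 13165 and 10598 in the same order. Of 8 tested glia markers, 5 were above and 3 below 0 against wild type, with a median of 0.20. They ranged from -0.67 ± 0.22 SE (Gfra3) to 1.13 ± 0.76 SE (Egfl8, with uneven knockout signals of 181 and 993). The summed signal of 10 mesenchyme markers was 13828 to 15397 in knockouts, 12645 to 13729 in heterozygotes and 11790 to 13415 in wild type, with none called. The part of these shifts in the results was not tested. In whole ganglia, fewer cells of a type and less RNA per cell cannot be told apart.

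Signals were low for most members. Values are MAS5 signals, 1 per probe set on a linear scale, and probe sets whose mean log2 level over all arrays lay in the lowest 40% were not tested, which is a signal of about 124 on U74Av2 and 172 on U74Bv2. Of the 63 member probe sets 23 passed, 15 on U74Av2 and 8 on U74Bv2, covering 20 of the 40 genes. On U74Av2 32.6% of the members passed, against 60% of all probe sets, and their median level stood at the 33.9th percentile of the array. On U74Bv2 47.1% passed, with the median at the 39.5th percentile. A dim signal was not taken to mean an absent transcript. The signal also depends on the probes themselves, so levels given for different probe sets place them on the array and do not rank transcripts.

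**Figure D1:**
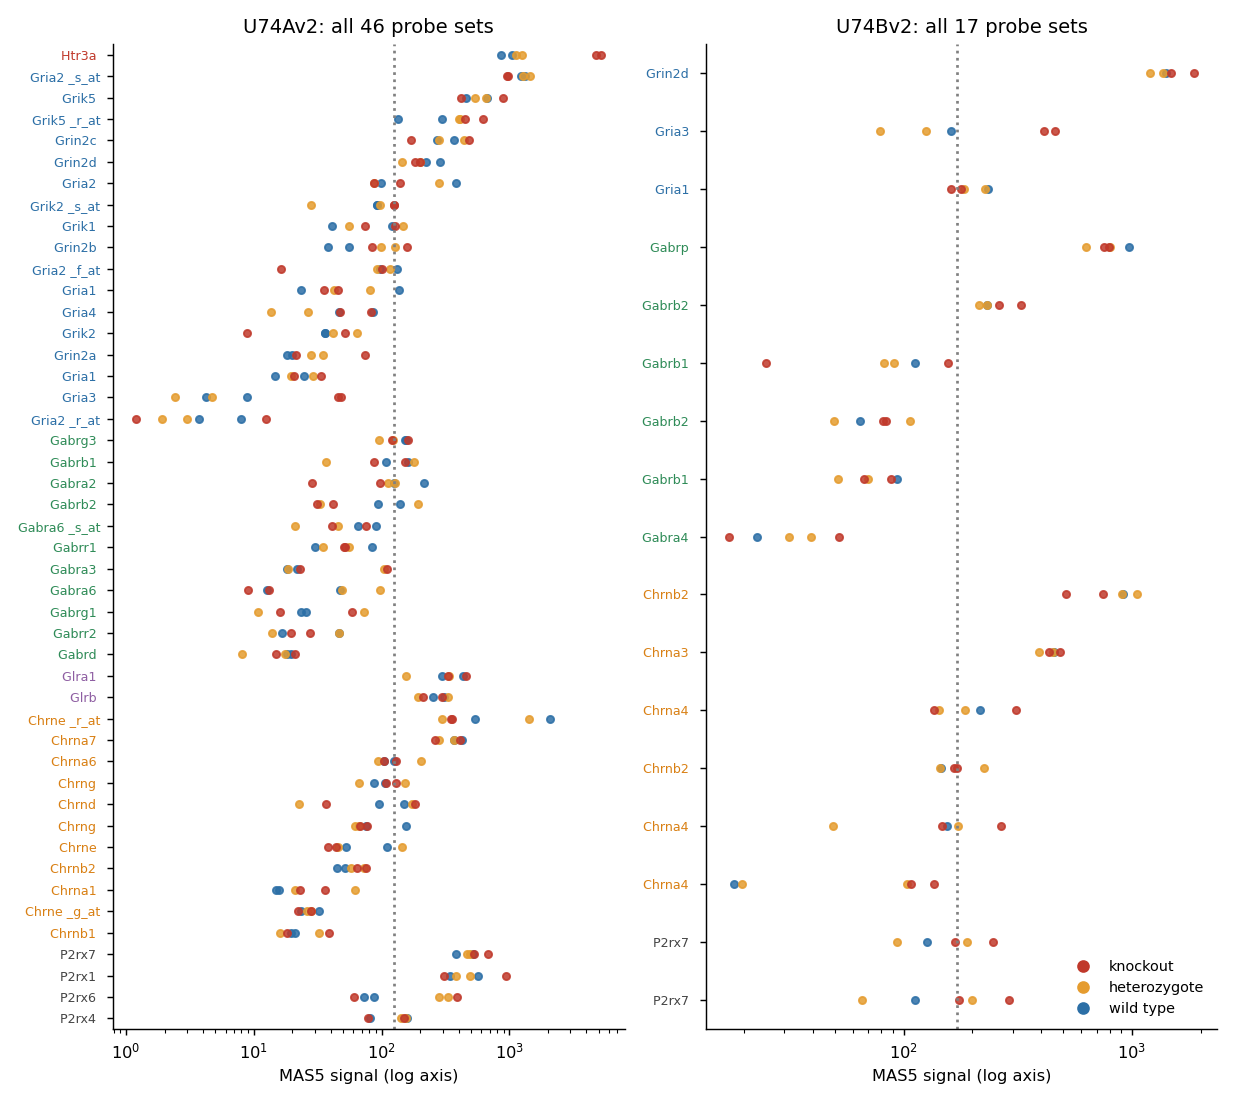
MAS5 signal (log axis) of every member probe set on U74Av2 (left, 46) and U74Bv2 (right, 17), 1 point per array coloured by genotype, with gene names coloured by transmitter from serotonin at the top to ATP at the bottom. The dotted line is the signal below which probe sets were not tested. The knockout points of Htr3a and Gria3 stand clear of all others in their row, and most GABA and acetylcholine receptor rows lie left of the line.

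One member rose in knockout on U74Av2. Htr3a encodes the subunit of the serotonin-gated cation channel that can form a working pore by itself, a fast excitatory receptor found on peripheral sensory neurons. By its mean over all arrays it was the brightest member on that array type, through its knockout signals. In heterozygotes (1267 and 1448) and wild type (1238 and 1318) a Gria2 probe set was brighter. The Htr3a signals were 5244 and 4788 in knockouts, 1129 and 1242 in heterozygotes, and 1049 and 854 in wild type. Both knockout arrays stood far above the highest of the other 4, and heterozygote and wild-type arrays stood close together without overlapping. The means were 5016 ± 323, 1185 ± 80.1 and 952 ± 138 (SD, n = 2 each) in knockout, heterozygote and wild type. On the log2(signal + 50.0) scale, Htr3a was 2.34 ± 0.21 (SE) higher than in wild type, a 5.08-fold change with a 95% interval of 1.85 to 2.84 (limma adjusted p = 0.0114). Within number 1 the difference was 2.27 and within number 2 it was 2.42.

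Against heterozygotes Htr3a was 2.04 ± 0.21 higher, a 4.10-fold change (adjusted p = 0.0190), with differences of 2.17 and 1.90 within numbers 1 and 2. The heterozygote itself differed from wild type by 0.31 ± 0.21, with an interval of -0.19 to 0.80 (adjusted p = 1.00), which leaves room for differences of that size between them. With knockout set against all 4 other arrays the difference was 2.19 ± 0.18 (adjusted p = 0.00116). In rank, Htr3a stood at the 98.1st and 97.9th percentiles of all probe sets in the knockout arrays, at the 86.4th and 87.4th in heterozygotes and at the 84.8th and 81.1st in wild type. The call against wild type was lost when either knockout array or either wild-type array was left out, with adjusted p between 0.0573 and 0.132, while the difference stayed between 2.20 and 2.48. The call against heterozygotes was lost without either knockout or either heterozygote array (adjusted p between 0.162 and 0.225).

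Htr3a was thus the 1 member called among 15 tested in knockout against wild type on U74Av2, where 0.255% of all 7453 probe sets were called. The same gene was the 1 member called against heterozygotes (background 0.188%) and against all other arrays (background 0.872%). The 15 tested members had a median difference of -0.10 against wild type, beside 0.02 for all tested probe sets, with 7 above and 8 below 0. No member was called in heterozygote against wild type, and neither was any other probe set on U74Av2 (0%). At an unadjusted p under 0.05 that limma comparison had 52 probe sets (0.698%), of which 2 were members. These were 1 Grik5 probe set (0.85 ± 0.34, unadjusted p = 0.0399) and P2rx6. That share is well under the threshold itself, so the lack of calls does not show that heterozygote and wild type were alike.

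**Figure D2:**
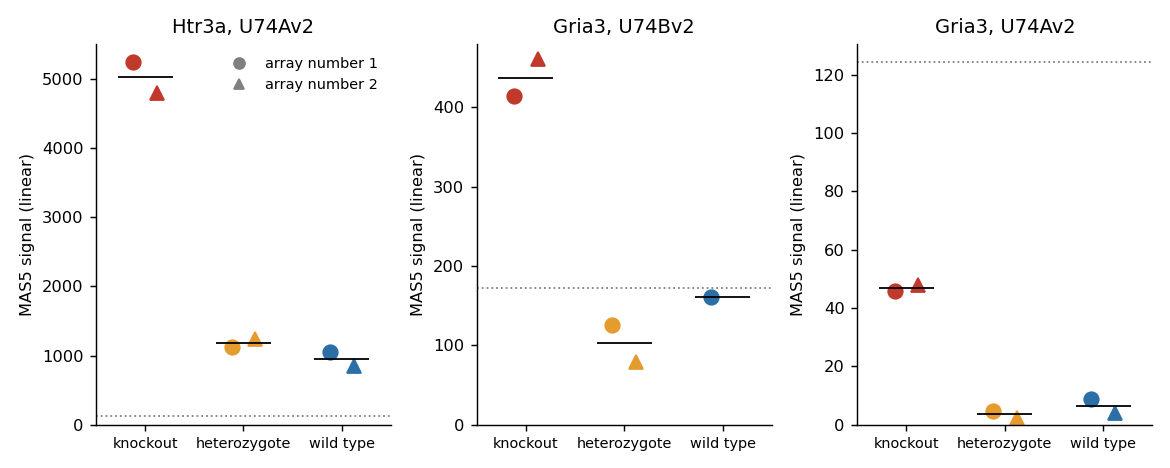
MAS5 signal (linear axis from 0) of Htr3a on U74Av2 and of Gria3 on U74Bv2 and U74Av2 in knockout, heterozygote and wild-type arrays. Circles are number 1 and triangles number 2 arrays, black bars are group means, and the dotted line is the level below which probe sets were not tested. In each panel both knockout arrays lie above all others, and on U74Av2 all Gria3 points lie under the dotted line.

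Among glutamate receptors, Gria3 had its highest signals in both knockout arrays, and it was called against heterozygotes where the filter on dim probe sets was used but not without it. It encodes the AMPA receptor subunit GluA3, 1 of 4 subunits that form the channels for fast excitatory transmission. On U74Bv2 its signals were 414 and 461 in knockouts, 126 and 79.1 in heterozygotes and 162 in the wild-type array. Both knockout arrays were above the other 3, and the lone wild-type array lay above both heterozygotes. On the log2(signal + 49.8) scale, the difference from heterozygotes was 1.69 ± 0.29 SE, a 3.23-fold change with an interval of 1.03 to 2.36 (limma adjusted p = 0.0253), and it was 1.40 and 1.99 within numbers 1 and 2. Against wild type it was 1.20 ± 0.36, or 2.30-fold, which did not pass (adjusted p = 0.228, unadjusted p = 0.00882), and against all other arrays it was 1.53 ± 0.27 (adjusted p = 0.0176). The heterozygote minus wild-type difference was -0.49 ± 0.36, with an interval of -1.30 to 0.32. With a lone wild-type array, this leaves room for differences of that size.

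Gria3 passed the filter on dim probe sets through the knockout arrays, since the heterozygote and wild-type means lay below the filter level. Without the filter the differences were the same and the adjusted p-values were 0.104 against heterozygotes (background 0.435%) and 0.0573 against all other arrays (background 1.31%). The call against heterozygotes was also lost without heterozygote array 2 (1.47, adjusted p = 0.0609), and that against all other arrays without heterozygote array 1 (1.56, adjusted p = 0.0607). Without either knockout array the probe set fell below the filter and was not tested. It was the 1 member called among 8 tested against heterozygotes on U74Bv2, where 1.71% of all 7446 probe sets were called, and likewise against all other arrays (background 2.93%). Against wild type none of the 8 was called by limma (background 1.4%), and 1 of them, Gria3, had an unadjusted p under 0.05, beside 11.2% of all probe sets. The 8 tested members had a median difference of -0.01 from wild type and 0.20 from heterozygotes, beside 0.02 for all tested probe sets in each. In heterozygote against wild type 0% of all probe sets were called, no member among them, and 283 probe sets (3.8%) had an unadjusted p under 0.05 by limma, none of them a member.

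A further Gria3 probe set on U74Av2 was dim in every genotype. Its signals were 45.8 and 47.8 in knockouts, 4.7 and 2.4 in heterozygotes, and 8.9 and 4.2 in wild type. Knockout arrays placed it at the 22.6th and 23.7th percentiles of all probe sets, against at most the 5.7th in the others. Heterozygote and wild-type values overlapped near the bottom of the array, where no order between them can be read. It was left out of the main test by the filter. Without the filter its log2 difference from all other arrays was 0.82 ± 0.11 SE (limma adjusted p = 0.0274), where 0.491% of 12422 probe sets were called. Against wild type alone (0.78, adjusted p = 0.184, background 0.137%) and against heterozygotes alone (0.85, adjusted p = 0.159, background 0.105%) it did not pass. Signals this far below the added constant of 50.0 give compressed differences.

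The other AMPA receptor subunits did not pass. Gria2 encodes GluA2, whose RNA is edited so that channels holding it pass little calcium, and its brightest probe set, of a type that can match several transcripts (_s_at), had signals of 959 and 966 in knockouts, 1267 and 1448 in heterozygotes, and 1238 and 1318 in wild type. Both knockout arrays were below all others, but the difference of -0.39 ± 0.20 from wild type had an interval of -0.86 to 0.08 (adjusted p = 1.00), and that from all other arrays was -0.43 ± 0.15 (unadjusted p = 0.0202, adjusted p = 0.439). A dimmer Gria2 probe set had 87.1 and 140 in knockouts, 87.5 and 280 in heterozygotes, and 98.6 and 379 in wild type. In it number 2 was above number 1 in every genotype, and the genotypes overlapped (-0.64 ± 0.60 against wild type). Both remaining Gria2 probe sets lay below the filter, with signals from 1.2 to 132.

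Gria1, the GluA1 subunit, had 162 and 178 in knockouts, 183 and 228 in heterozygotes and 235 in wild type on U74Bv2. Its knockout arrays were the lowest, with a difference from wild type of -0.37 ± 0.35 (adjusted p = 0.799). Both U74Av2 probe sets of Gria1 were below the filter, as was Gria4, whose highest signal was 85.7.

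Kainate receptor subunits gave an uneven picture between probe sets. Grik5, which encodes a high-affinity subunit that needs a partner to form channels, had 2 tested probe sets on U74Av2. The brighter one had 889 and 416 in knockouts, 657 and 537 in heterozygotes, and 665 and 459 in wild type, with overlapping genotypes and a difference from wild type of 0.13 ± 0.37. The other, of relaxed design (_r_at), had 616 and 446 in knockouts, 405 and 410 in heterozygotes, and 135 and 296 in wild type. There both knockout arrays were the highest, and the difference of 1.18 ± 0.34 from wild type missed the threshold after adjustment (unadjusted p = 0.0101, adjusted p = 0.597). Within numbers it was 1.85 and 0.52, so most of it lay in number 1. Grik1, the main kainate receptor subunit of small sensory neurons in rodents, was below the filter with signals from 40.6 to 146, and so were both Grik2 probe sets. Of these the _s_at set of Grik2 had 124 and 125 in knockouts, above at most 97.4 elsewhere.

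NMDA receptor subunits did not pass on either array type. Grin2d, a subunit typical of embryonic nervous tissue, was the brightest member on U74Bv2, with signals of 1486 and 1873 in knockouts, 1363 and 1205 in heterozygotes and 1404 in wild type. Knockout arrays were the highest there, by 0.24 ± 0.22 over wild type (interval -0.26 to 0.74, adjusted p = 0.791) and 0.37 ± 0.18 over heterozygotes (adjusted p = 0.593). The U74Av2 probe set of Grin2d was much dimmer, with 199 and 182 in knockouts, 200 and 144 in heterozygotes, and 288 and 220 in wild type, and its difference from wild type had the opposite sign (-0.33 ± 0.27). Grin2c had 481 and 170 in knockouts, 443 and 283 in heterozygotes, and 367 and 273 in wild type, with number 1 above number 2 in every genotype and no separation of the genotypes (-0.10 ± 0.44). Grin2a and Grin2b were below the filter, with highest signals of 74.3 and 158.

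**Figure D3:**
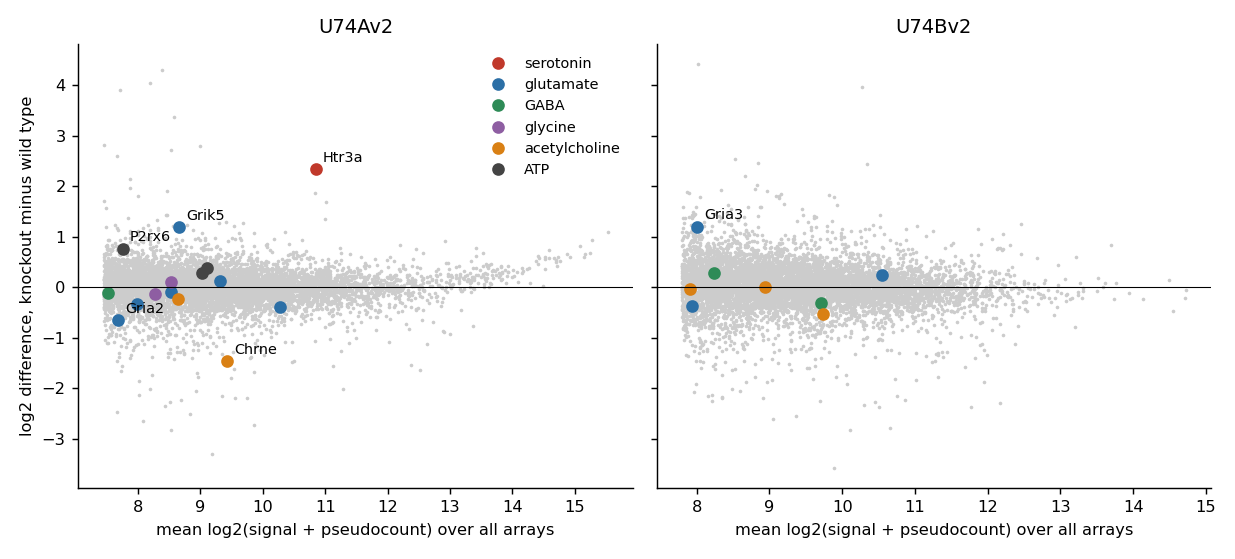
Log2 difference of knockout minus wild type against the mean log2 level over all arrays, for tested probe sets of U74Av2 (left) and U74Bv2 (right). Grey points are all other probe sets and coloured points the members by transmitter, with those beyond 0.6 in size named. Htr3a stands apart at 2.34 among bright probe sets, and Gria3 at 1.20 lies among many grey points at the dim end.

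None of the GABA receptor subunits was called. These chloride channels are usually built from alpha, beta and gamma subunits. On U74Av2, 10 of 11 probe sets were below the filter, and the class median was at the 23.9th percentile. The brightest, Gabrg3, had 120 and 159 in knockouts, 95 and 124 in heterozygotes, and 154 and 155 in wild type, differing by -0.12 ± 0.28 from wild type (interval -0.78 to 0.55). Next in level were Gabrb1, at 152 and 87.7 in knockouts, 36.8 and 179 in heterozygotes, and 108 and 162 in wild type, and Gabra2.

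Gabra2 had 28.4 and 97.2 in knockouts, 127 and 111 in heterozygotes, and 125 and 216 in wild type. Both knockout arrays were the lowest, at signals under the filter level, and no test was made. On U74Bv2, Gabrp, the pi subunit known from epithelia such as the uterus, had 795 and 757 in knockouts, 802 and 631 in heterozygotes and 975 in wild type. Its difference was -0.31 ± 0.23 against wild type (interval -0.83 to 0.21) and 0.12 ± 0.19 against heterozygotes (interval -0.31 to 0.54). Gabrb2 had 263 and 327 in knockouts, 233 and 214 in heterozygotes and 231 in wild type. Its knockout arrays were the highest, with a difference of 0.29 ± 0.32 from wild type and 0.33 ± 0.26 from heterozygotes (adjusted p = 0.842 and 0.818). Its U74Av2 probe set was dim and ran the other way, at 31.3 and 41.6 in knockouts against 92.9 and 139 in wild type, with heterozygotes at 191 and 32.7. A further Gabrb2 probe set on U74Bv2 and both Gabrb1 probe sets there were below the filter, the brighter Gabrb1 one at 157 and 24.9 in knockouts, 81.9 and 90.9 in heterozygotes and 112 in wild type. In all, 9 of 12 GABA receptor genes had no tested probe set.

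Both glycine receptor genes were tested on U74Av2 and neither passed. Glra1, a ligand-binding subunit, had 454 and 332 in knockouts, 155 and 336 in heterozygotes, and 432 and 294 in wild type, with a difference of 0.11 ± 0.36 from wild type. Glrb, the subunit that ties the receptor to its scaffold gephyrin, had 294 and 211 in knockouts, 191 and 333 in heterozygotes, and 253 and 306 in wild type (-0.13 ± 0.31). The genotypes overlapped in both genes, and their intervals reached from -0.76 to 0.97 for Glra1 and from -0.87 to 0.60 for Glrb.

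Nicotinic acetylcholine receptor genes of neuronal type were measured without a call. Chrna3, the main alpha subunit of autonomic ganglia, had 486 and 435 in knockouts, 394 and 450 in heterozygotes and 455 in wild type. Its difference from wild type was 0.01 ± 0.25, with an interval of -0.57 to 0.59. Chrna7, which forms calcium-permeable channels by itself, had 411 and 263 in knockouts, 279 and 365 in heterozygotes, and 423 and 371 in wild type (-0.23 ± 0.28). Chrna4, a subunit of the high-affinity receptors of the brain, had 311 and 135 in knockouts, 187 and 143 in heterozygotes and 216 in wild type (-0.04 ± 0.45). In the tested probe sets of these 3 genes the genotypes overlapped. Of 2 further Chrna4 probe sets, both below the filter, the brighter overlapped too, at 147 and 266 in knockouts, 48.9 and 174 in heterozygotes and 155 in wild type. The dimmer had 108 and 136 in knockouts, 104 and 19.6 in heterozygotes and 18.1 in wild type, with both knockout arrays the highest.

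Chrnb2, the usual partner of Chrna4, was lower in both knockout arrays on U74Bv2. Its signals were 744 and 515 in knockouts, 1055 and 909 in heterozygotes and 911 in wild type. The difference of -0.52 ± 0.26 from wild type (adjusted p = 0.529), -0.62 ± 0.21 from heterozygotes (adjusted p = 0.303) and -0.59 ± 0.18 from all other arrays (unadjusted p = 0.0102, adjusted p = 0.174) did not pass. The other 2 Chrnb2 probe sets, both below the filter, did not show the lower knockout values. That on U74Av2 had 63.7 and 75.9 in knockouts, 57.8 and 72.1 in heterozygotes, and 51.6 and 45.1 in wild type. Chrna6, next in level on U74Av2, had 129 and 103 in knockouts, 202 and 94.4 in heterozygotes, and 126 and 104 in wild type.

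Subunits of the muscle endplate receptor were dim, with 1 exception. Chrna1, Chrnb1, Chrnd and Chrng had signals of at most 183. Beside them, 10 of 21 skeletal muscle markers on U74Av2 were below the filter, Chrna1, Chrnd and Chrng among them, and the summed signal of the list was 3764 to 4916 in knockouts, 3879 to 4424 in heterozygotes and 3631 to 4547 in wild type. The exception was 1 of 3 probe sets of Chrne, the adult endplate subunit. This one, of relaxed design (_r_at), had 355 and 351 in knockouts, 1418 and 299 in heterozygotes, and 2064 and 536 in wild type. Number 1 was above number 2 in every genotype, the heterozygotes spanned the knockout values, and the difference of -1.47 ± 0.77 from wild type did not pass (adjusted p = 1.00). Within numbers it was -2.38 and -0.55. Both other Chrne probe sets stayed at or under 145.

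Of the 4 ATP-gated P2X channel genes on U74Av2, P2rx7 and P2rx1 stood at the 70.2nd and 68.7th percentiles of the array, P2rx6 at the 45.5th and P2rx4 at the 39.8th, and none was called. P2rx7, best known from macrophages and microglia, had 675 and 527 in knockouts, 466 and 488 in heterozygotes, and 519 and 383 in wild type. Its knockout arrays were the highest, by a narrow margin, with a difference of 0.38 ± 0.24 from wild type (interval -0.20 to 0.96). None of 5 tested macrophage and immune markers was called, and the summed signal of 10 such markers was 1295 to 1624 in knockouts, 1482 to 1884 in heterozygotes and 1589 to 1792 in wild type. Both P2rx7 probe sets on U74Bv2 were below the filter, with 168 and 246 in knockouts, 189 and 93.9 in heterozygotes and 127 in wild type for the brighter and 175 and 288 in knockouts, 65.6 and 200 in heterozygotes and 112 in wild type for the dimmer one.

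P2rx1, known from smooth muscle and platelets, had 940 and 309 in knockouts, 493 and 383 in heterozygotes, and 566 and 341 in wild type. Its number 1 arrays were above the number 2 arrays of their genotype, and the genotypes overlapped (0.28 ± 0.48). P2rx6, a subunit that forms channels poorly by itself, had 387 and 60.2 in knockouts, 328 and 280 in heterozygotes, and 86.8 and 72.4 in wild type. Both heterozygote arrays were above wild type, by 1.45 ± 0.59 (unadjusted p = 0.0436, adjusted p = 1.00), while 1 knockout array was above and 1 below all of these. P2rx4 was just below the filter, with signals from 78.3 to 157.

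**Figure D4:**
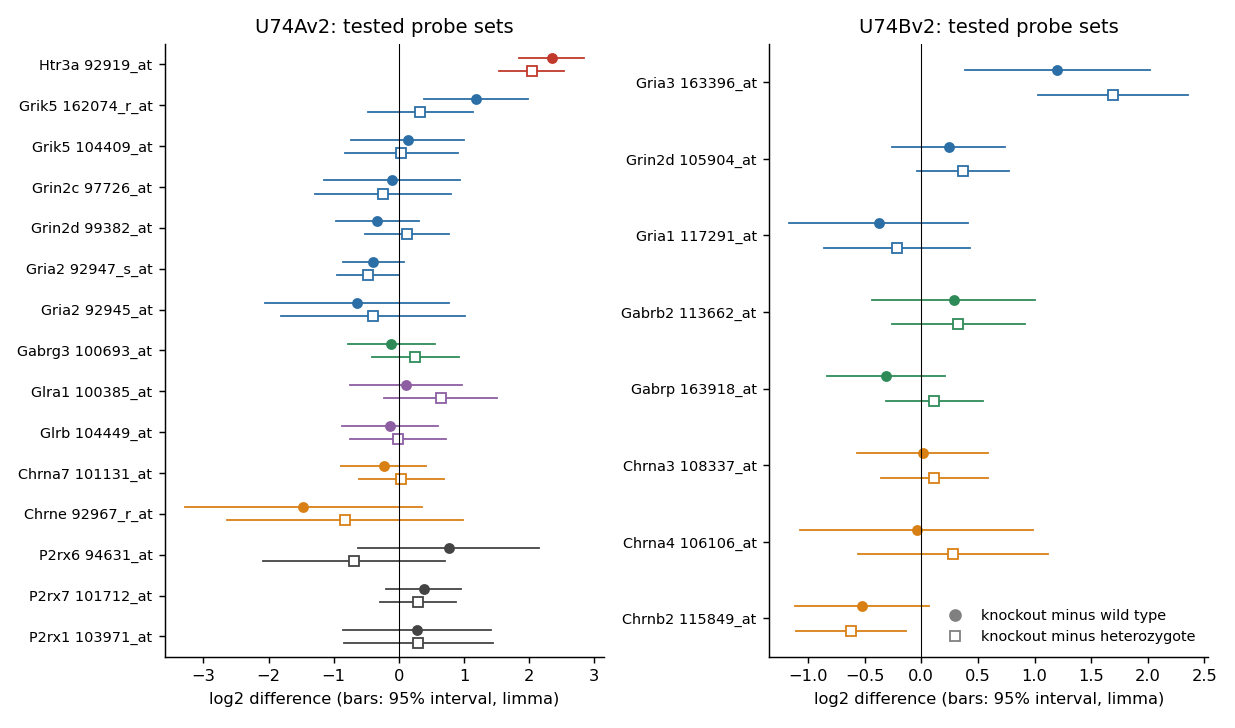
Log2 differences of the 23 tested member probe sets on U74Av2 (left) and U74Bv2 (right), filled circles for knockout minus wild type and open squares for knockout minus heterozygote, with 95% limma intervals as bars and colours by transmitter. Both comparisons share the knockout arrays. Both intervals of Htr3a and of Gria3 lie above 0, as does 1 of the Grik5 intervals, the Chrnb2 interval against heterozygotes lies below 0, and all others include 0.

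Separation of the arrays without a test was as follows. Both knockout arrays were higher than every other array for 3 of 15 tested members on U74Av2 (Htr3a, P2rx7 and 1 Grik5 probe set), beside 8.53% of all tested probe sets, and lower for 1 (Gria2), beside 7.66%. On U74Bv2 they were higher for 3 of 8 (Gria3, Grin2d and Gabrb2), beside 14.9%, and lower for 2 (Chrnb2 and Gria1), beside 13.4%. Of these, Gria3 passed the filter through the knockout arrays and Gria1 through the other arrays. With no filter, knockout arrays were higher for 5 of 46 members on U74Av2, beside 8.66% of all probe sets but controls, and lower for 3, beside 6.63%. On U74Bv2 they were then higher for 4 of 17, beside 13.6%, and lower for 2, beside 11.7%. Array number also ordered some members, more often with number 1 above, while over all probe sets number 1 was more often below. On U74Av2 number 1 was above number 2 in all 3 genotypes for 6 of 15 tested members, beside 26.4% of all probe sets, and below it for 3, beside 33%. On U74Bv2, over the 2 genotypes with both numbers, it was above for 3 of 8, beside 25.8%, and below for 1, beside 28.8%. Htr3a was in none of these sets.

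Partner genes of the same transmitter systems were described from lists of transporters, enzymes, scaffolds and G-protein-coupled receptors, with the brightest probe set for each gene. None of their tested genes was called in knockout against wild type or against heterozygotes on either array type. Against all other arrays 2 were called, both of the glutamate list on U74Bv2, where 2.93% of all tested probe sets were called. Of 15 tested genes there, Slc1a3 was called higher and Homer2 lower, and 13 did not pass. Both were called with the filter on dim probe sets and neither without it (background 1.31%). Slc1a3 encodes the glutamate transporter GLAST, which in the nervous system is carried mainly by glia. Its signals were 347 and 487 in knockouts, 85.9 and 155 in heterozygotes and 119 in wild type, a difference of 1.47 ± 0.27 from all other arrays (adjusted p = 0.0218). Like Gria3 it passed the filter through the knockout arrays. The 1 Schwann and satellite glia marker on this array type had 3082 and 4517 in knockouts, lowest first, against 2863 and 3063 in heterozygotes and 2904 in wild type.

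Homer2, a scaffold of metabotropic glutamate receptors, had 1199 and 820 in knockouts, 1713 and 1759 in heterozygotes and 2098 in wild type, a difference of -0.87 ± 0.18 from all other arrays (adjusted p = 0.0380). Both knockout arrays were the lowest, as for 13.4% of all tested probe sets on U74Bv2. The Homer2 probe set on U74Av2 had 515 and 507 in knockouts, 834 and 493 in heterozygotes, and 757 and 471 in wild type. It did not pass (-0.26 ± 0.25). The Slc1a3 call was lost without the filter (adjusted p = 0.0687) and without heterozygote array 1 or the wild-type array (0.0751 and 0.0615). The Homer2 call was lost without the filter (0.0816), without an intensity trend (0.102) and without any 1 array but knockout array 1 (adjusted p from 0.0761 to 0.243), with a difference of -0.60 where knockout array 2 was left out.

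The 15 tested glutamate partners on U74Bv2 had a median difference from wild type of 0.16, with 9 above and 6 below 0. On U74Av2 the median of 11 tested was -0.20, with 2 above and 9 below 0, among them Dlg4, the postsynaptic scaffold PSD-95, at -0.43 ± 0.28 and the metabotropic receptor Grm8 at -0.36 ± 0.35. Of 8 tested GABA and glycine partners 6 had a negative difference, with the receptor-trafficking protein Gabarapl1 at -0.32 ± 0.23 and the chloride importer Slc12a2 at -0.31 ± 0.36. The GABA-synthesising enzymes Gad1 and Gad2 and the vesicular transporter Slc32a1 were below the filter. On U74Bv2 the 5 tested GABA and glycine partners ranged from -0.72 (Trak2) to 0.58 (Slc6a11, a GABA transporter).

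Serotonin partners on U74Av2 comprised 9 tested genes, none called, with a median difference from wild type of 0.14. Beside Htr3a, the serotonin-degrading enzyme Maoa had 1370 and 1433 in knockouts, 823 and 1114 in heterozygotes, and 657 and 873 in wild type, a difference of 0.85 ± 0.25 that did not pass (unadjusted p = 0.0110, adjusted p = 0.613). Its knockout arrays were the highest, as for 8.53% of all tested probe sets on U74Av2. The inhibitory receptor Htr1d, at -0.54 ± 0.31, leaned the other way with a mean of 206 in knockouts and 318 in wild type. On U74Bv2 the 1 tested serotonin partner was Maob (0.34 ± 0.34).

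Among acetylcholine partners 4 genes were tested on each array type and none was called. Rapsn, which clusters endplate receptors, stood at -0.34 ± 0.21 and Ly6h at -0.22 ± 0.34 on U74Av2, and Bche, which breaks down choline esters, at 0.39 ± 0.29 and Dok7 at -0.39 ± 0.20 on U74Bv2. Among ATP partners Entpd2, an enzyme that breaks down extracellular ATP and is found on satellite and Schwann cells, was the 1 tested gene on U74Av2. It had 2006 and 1706 in knockouts, 1239 and 1243 in heterozygotes, and 1168 and 1090 in wild type. All knockout values were above the others, as for 8.53% of all tested probe sets there. The Entpd2 difference of 0.69 ± 0.20 from wild type did not pass (limma unadjusted p = 0.0114, adjusted p = 0.624). On U74Bv2, 3 ATP partners were tested without a call, led by the purine receptor P2ry13 at -0.85 ± 0.28 (adjusted p = 0.266) and by Entpd1 at 0.41 ± 0.42.

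**Figure D5:**
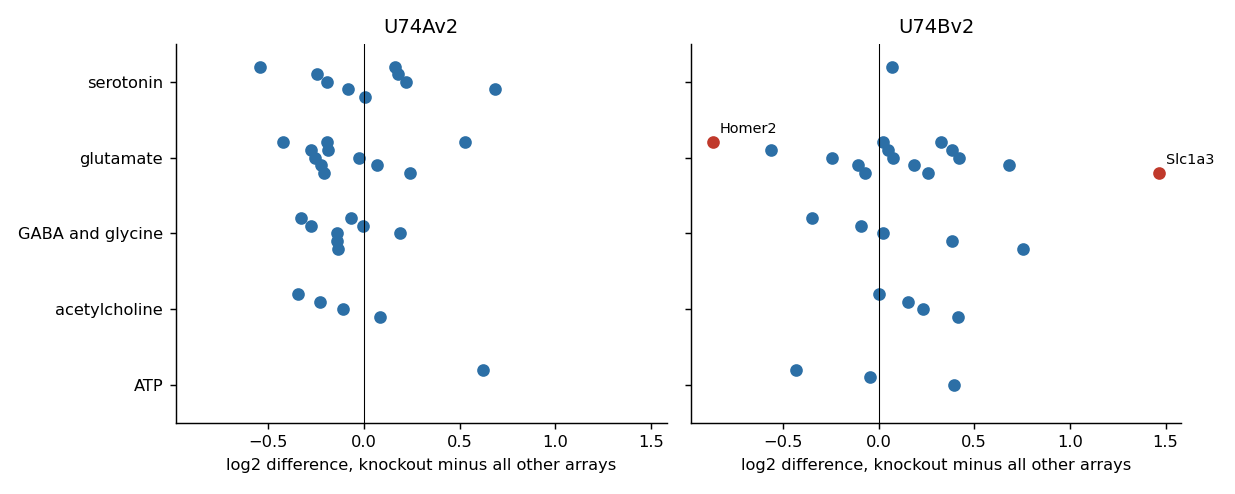
Log2 difference of knockout minus all other arrays for the tested partner genes of each transmitter system, 1 point per gene (vertical offsets only separate points), on U74Av2 (left) and U74Bv2 (right). Red points passed an adjusted p of 0.05. Slc1a3 at 1.47 and Homer2 at -0.87 are the 2 red points, and on both array types most other genes lie closer to 0.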

How the data were processed

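Gene expression was measured on 11 Affymetrix arrays of mouse trigeminal ganglia. The deposited values are intensities, 1 linear signal per probe set. Per the submitters' processing notes they come from MAS5, with no version or scaling target named. The 2% trimmed means lay between 500.26 and 500.29 on U74Av2 and between 497.61 and 498.38 on U74Bv2, so signals were not rescaled. Symbols came from the platform annotation, updated by Entrez identifier with a RefSeq table of GRCm38.p6 (0 symbols changed).

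The scale was log2(signal + pseudocount), with 50.0 on U74Av2 and 49.8 on U74Bv2, 0.1 of the trimmed mean. This understates changes of dim probe sets. The 66 control probe sets and those in the lowest 40% by mean log2 value were left out, leaving 7453 and 7446. A limma 3.58.1 model (R 4.3.3) with genotype as factor used every array of a type, with eBayes and an intensity trend. A further fit set knockout against all other arrays. Calls are at a two-sided Benjamini-Hochberg adjusted p under 0.05 over all tested probe sets of a type. The lone wild-type U74Bv2 array was assumed to vary like the other genotypes. The fit was tested on simulated data.

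Named in full were Htr3a, Gria3, every called member and, by transmitter, the 3 brightest members and the 2 tested members with the largest difference per array type. From the partner lists called genes were named, or the 2 with the largest differences from wild type. Members and lists were chosen with earlier results of these data known. Plots used matplotlib 3.10.9 in Python 3.11.15.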

Additional observations from a re-analysis of the deposited data

How the results depend on the processing

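Alternatives were other pseudocounts, no or a stricter filter on dim probe sets, quantile normalization, no intensity trend, robust eBayes, the replicate number as a block and each array left out. No difference of Htr3a, Gria3, Homer2 or Slc1a3 that passed its test changed sign where it could be tested again. In each of these genes both knockout arrays lay beyond every other array. Leaving out an array or changing the pseudocount or the filter could therefore not have reversed a sign. Gria3 on U74Bv2 and Slc1a3 were not tested with the filter at the 60th percentile or without either knockout array, since they then lay below the filter. Of 106 recomputed counts of called members 87 kept their value, among them every count of the comparisons with no member called at first. Where 1 member was called, the U74Av2 count was kept in 10 of 14 alternatives against wild type and in 10 of 14 against heterozygotes. Against all other arrays it was kept in 13 of 14. The U74Bv2 count was kept in 8 of 13 against heterozygotes and in 8 of 13 against all other arrays. Htr3a stayed called in its 3 knockout comparisons under all alternatives except, against wild type and against heterozygotes, those without 1 of the arrays compared. Without a filter on U74Av2, 2 members were called in knockout against all other arrays, the other being Gria3. On U74Bv2, 0 members were called without the filter and with it at the 60th percentile, against heterozygotes and against all other arrays, where Gria3 is then corrected over more probe sets or is not tested. With 1 array left out, the count ranged from 0 to 1 on U74Av2 against wild type and against heterozygotes, and from 0 to 1 on U74Bv2 against heterozygotes and against all other arrays.

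Counts over all probe sets moved more. On U74Av2, the block gave 130 in place of 19 against wild type, 129 in place of 14 against heterozygotes and 266 in place of 65 against all other arrays. On U74Bv2 it gave 216 in place of 104, 317 in place of 127 and 231 in place of 218. With the replicate block the called members were still 1 (Htr3a, 2.34 against wild type, adjusted p = 7.95e-04) on U74Av2 in each knockout comparison and 1 (Gria3) against heterozygotes (1.69, adjusted p = 0.00185) and against all others on U74Bv2, with 0 against wild type. The block was fitted only with the filter on dim probe sets, which Gria3 passed through the knockout arrays. With neither filter nor block, its limma adjusted p against heterozygotes was 0.104. The labels do not say what the numbers mark. Deviations of same-numbered arrays correlated at 0.533 to 0.619 between genotypes on U74Av2, where all 6 arrays correlated best with one of the same number, and at 0.103 on U74Bv2. Without 1 array the U74Av2 counts over all probe sets were 0 to 15, 0 to 11 and 17 to 42, and the U74Bv2 counts were 115 to 178, 130 to 188 and 112 to 202. The other settings gave 11 to 21, 8 to 18 and 42 to 76 on U74Av2, and 21 to 110, 54 to 151 and 158 to 225 on U74Bv2.

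With 2 arrays a genotype and 1 for wild type on U74Bv2, intervals are wide. The filter left 40 dim member probe sets untested in the main comparisons.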
